A study of Mus musculus with 5 samples.

Results

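The genes described here encode p63 and 8 other transcription factors of epithelial cells: Trp63, Bnc1, Pitx1, Tfap2a, Tfap2c, Grhl2, Ehf, Elf3 and Ovol1. They are 9 of the 12934 genes listed in the count table. The set was put together with differences between sgMef2d and sgControl cells already in view, since Trp63 and Pitx1 had been seen to be higher in the sgMef2d cells. The differences of the 9 genes between these groups are therefore given as a description. No p-value is given for them, and where the text says which of them passed a threshold, that too only describes the genes chosen and supports nothing.

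EpH4 is a mouse mammary epithelial cell line. All libraries came from EpH4 cells that stably expressed Cas9 and had been selected with blasticidin and puromycin. The cells carried either a control sgRNA (sgControl, 3 libraries) or an sgRNA against Mef2d (sgMef2d, 2 libraries), and poly(A) RNA was sequenced to ask which genes depend on the transcription factor MEF2D. The labels do not say which sgRNA each sgMef2d library carried, or whether libraries of a group came from separate cultures, so the p-values measure the spread between these libraries, which may be technical.

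p63 is a member of the p53 family that keeps the basal layer of skin and other stratified epithelia and marks the basal cells of the mammary gland. It acts with a circle of other factors: AP-2 proteins and basonuclin in basal keratinocytes, the grainyhead-like factors at cell junctions and in barrier formation, the epithelial ETS factors EHF and ELF3 and the zinc-finger repressor OVOL1 as cells differentiate, and PITX1 as a homeobox factor of the hindlimb that is also found in some epithelia. Luminal mammary cells express the grainyhead-like and ETS factors but little p63.

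Library totals ran from 13601145 to 20498563 counts, and 3 counts corresponded to 0.146 to 0.221 CPM on these totals. CPM are counts scaled to the library total, which for all other values was adjusted by its TMM normalization factor. Mef2d was at 64.3, 76.9 and 71.5 CPM in the sgControl libraries and at 64.2 and 65.8 CPM in the sgMef2d libraries. Its log2 fold change was -0.12 ± 0.080 (SE, 3 against 2 libraries), with an adjusted p of 0.400 (edgeR's quasi-likelihood test, Benjamini-Hochberg). It passed without sgControl replicate 1, and over the alternatives its log2 fold change lay between -0.19 and -0.06 and its adjusted p in those fits between 5.50e-03 and 0.770. The groups overlapped, so its RNA level does not check the labels. The replicate 1 library of sgControl stood apart from the other sgControl libraries: chi-square per degree of freedom over genes was 10.6 and 13.7 between it and the others, against 2.01 between replicates 2 and 3 and 2.04 between both sgMef2d libraries. For the factors and the genes named by rule, calls without it are given where they change. In bulk RNA, fewer cells of a type and less RNA per cell cannot be told apart. Luminal epithelial markers were abundant, with Krt8, Krt18, Epcam, Cdh1, Cldn3 and Cldn4 summing to 2472 to 2585 CPM in sgControl and 2436 to 2523 CPM in sgMef2d libraries, while Krt19 was not listed among the genes analysed here. Of these, Krt18 fell by 0.26 on the log2 scale (adjusted p = 0.0207 in edgeR), with 684 to 724 CPM in sgControl and 580 to 602 CPM in sgMef2d libraries, and Cldn4 rose.

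Of the 9 factor genes, 4 passed the adjusted p threshold of 0.05 and all 4 of them were higher in sgMef2d cells, beside 7.95% of all 12483 genes tested, 3.67% higher and 4.28% lower. For 7 of the 9, both sgMef2d libraries lay above the 3 sgControl libraries, beside 20.6% of all genes tested that were separate in this direction and 41.1% in either. Since the genes were chosen from this contrast, nothing is read from these counts. The 9 log2 fold changes were all above 0, with a median of 0.39, and the median over all genes tested was 0.0031. The sum of the 9 genes was 200, 214 and 220 CPM in sgControl and 301 and 300 CPM in sgMef2d libraries.

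**Figure D1:**
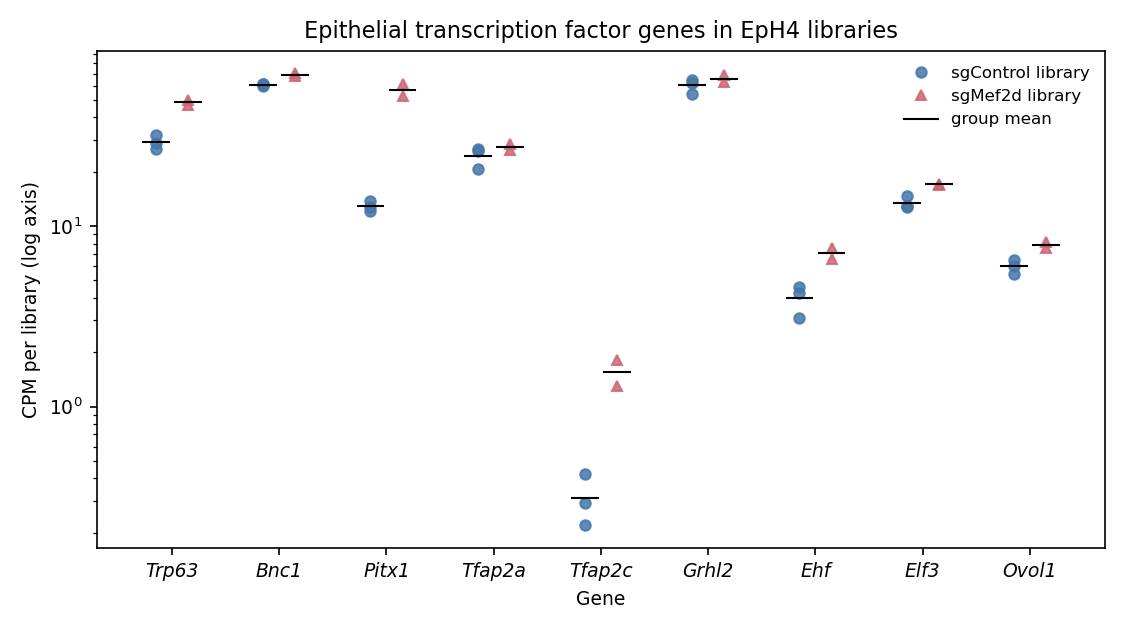
CPM of the 9 factor genes on a log axis, with a point for each of the 3 sgControl and 2 sgMef2d libraries and a line at each group mean. The groups are separate for 7 genes and overlap for Tfap2a and Grhl2, and the gap is widest for Pitx1 and Tfap2c.

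Trp63 encodes p63 and lies on chromosome 16 (GRCm38, chr16:25683763-25892102, plus strand). Transcripts that start at its upstream promoter encode the TA proteins, with a full transactivation domain, and those that start at an internal promoter encode the ΔN proteins, the form that basal epithelial cells mainly make. The first coding exons of these forms are shown because the counts are summed over the gene and do not separate them. In each exon the start codon is in capitals. Each is the first coding exon of 4 of the 8 annotated transcripts, and no stretch of 20 bases of either occurs in the transcripts of the other form.
Trp63 upstream first coding exon, chr16:25684290-25684351: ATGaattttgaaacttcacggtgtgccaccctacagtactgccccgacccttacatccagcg
Trp63 internal first coding exon, chr16:25802060-25802101: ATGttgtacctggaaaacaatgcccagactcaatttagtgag

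Trp63 was at 28.7, 26.7 and 32.0 CPM in the sgControl libraries and at 47.1 and 50.03 CPM in the sgMef2d libraries. Every sgMef2d library was above every sgControl library, with means of 48.6 ± 2.05 (SD, n = 2) and 29.1 ± 2.67 CPM (SD, n = 3). The log2 fold change was 0.74 ± 0.086 (SE), a 1.67-fold higher level, with a 95% interval from 0.55 to 0.93. It lay between 0.68 and 0.81 under the 14 alternative settings and was 0.73 without the sgControl library that stood apart. Which of the exons shown above the reads came from was not analysed here.

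Bnc1 (chr7:81966672-81992292, minus strand) encodes basonuclin 1, a zinc-finger protein of basal keratinocytes and germ cells. It was at 60.1, 61.4 and 61.1 CPM in the sgControl libraries and at 70.2 and 67.5 CPM in the sgMef2d libraries. The groups did not overlap, but the step was small, at 0.18 ± 0.063 (SE) on the log2 scale with an interval from 0.04 to 0.32. Bnc1 had the highest level per exon length of the 9 genes in sgControl cells, at 13.1 ± 0.146 CPM per kilobase (SD, n = 3).

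Pitx1 (chr13:55825051-55836192, minus strand) encodes a paired-like homeobox factor. It was at 12.8, 12.1 and 13.9 CPM in the sgControl libraries and at 52.8 and 60.9 CPM in the sgMef2d libraries. Both sgMef2d libraries were far above all sgControl libraries, with a log2 fold change of 2.14 ± 0.094 (SE), or 4.41-fold, and an interval from 1.93 to 2.35. It ranged from 2.03 to 2.24 over the alternative settings. Of its exon bases 6.21% overlap Gm47071 on the opposite strand, which had 3 to 12 counts in the 5 libraries, and 4.07% overlap Gm28760 on the same strand, which was not listed among the genes analysed here. Whether the counting used strand is not given in the sources used here.

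The AP-2 proteins bind GC-rich elements of epidermal and mammary genes. Tfap2a (chr13:40715302-40738376, minus strand), which encodes AP-2 alpha, was at 20.6, 26.8 and 25.9 CPM in the sgControl libraries and at 28.5 and 26.3 CPM in the sgMef2d libraries. The groups overlapped, and the log2 fold change of 0.18 ± 0.114 (SE) had an interval from -0.08 to 0.43. Without sgControl replicate 1, its lowest library, the log2 fold change was 0.06. Antisense genes cover 14.6% of its exon bases.

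Tfap2c (chr2:172549593-172558622, plus strand), which encodes AP-2 gamma, was near the limit of detection in sgControl cells, with 6, 6 and 3 counts. The sgMef2d libraries held 22 and 27 counts. In CPM these were 0.293, 0.425 and 0.220 against 1.29 and 1.82. The groups did not overlap, and the ratio of the summed CPM was 4.95, with an exact 95% interval from 2.73 to 9.50 that covers counting error only. The fitted log2 fold change was 2.28 ± 0.431 (SE), the widest error of the 9 genes, and it no longer passed the threshold when sgMef2d replicate 2 was left out.

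Grhl2 (chr15:37233036-37363569, plus strand) encodes grainyhead-like 2, which keeps up the expression of epithelial junction genes. It was at 54.0, 62.3 and 64.1 CPM in the sgControl libraries and at 68.5 and 62.5 CPM in the sgMef2d libraries. The groups overlapped, and the log2 fold change was 0.13 ± 0.084 (SE), with an interval from -0.06 to 0.31. It was 0.05 without sgControl replicate 1.

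Ehf (chr2:103263433-103303278, minus strand) and Elf3 (chr1:135253575-135258568, minus strand) encode ETS factors restricted to epithelia. Ehf was at 4.24, 4.61 and 3.08 CPM in the sgControl libraries and at 7.59 and 6.60 CPM in the sgMef2d libraries. The groups did not overlap, and the log2 fold change was 0.83 ± 0.183 (SE), with an interval from 0.43 to 1.23. It no longer passed the threshold when either sgMef2d library was left out. Elf3 was at 12.9, 12.8 and 14.7 CPM in the sgControl libraries and at 17.2 and 17.0 CPM in the sgMef2d libraries. Its groups were also separate, with a smaller difference of 0.35 ± 0.105 (SE) and an interval from 0.12 to 0.58, which passed the threshold under only 2 of the 14 alternative settings, with a replicate block and without sgControl replicate 1.

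Ovol1 (chr19:5549136-5560646, minus strand) encodes a zinc-finger repressor that acts as epidermal cells leave the basal state. It was at 6.05, 6.45 and 5.42 CPM in the sgControl libraries and at 8.12 and 7.54 CPM in the sgMef2d libraries. The groups did not overlap, and the log2 fold change was 0.39 ± 0.143 (SE), with an interval from 0.08 to 0.70. It passed the threshold under 0 of the 14 alternative settings. Antisense genes cover 21.96% of its exon bases, most of them Gm31166, which had 5 to 14 counts in the 5 libraries. Without sgControl replicate 1, 6 of the 9 genes passed the threshold, Bnc1 and Elf3 being added. In that fit 3639 of all 12377 genes tested passed. Calls among the 9 genes were lost when either sgMef2d library was left out.

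Levels were compared between genes as CPM per kilobase of exon. In sgControl cells Bnc1 was highest, followed by Grhl2 at 6.98 ± 0.624 and Elf3 at 6.08 ± 0.464, whose libraries overlapped, then Tfap2a at 4.99 ± 0.683 and Pitx1 at 4.85 ± 0.341, which also overlapped. Trp63 at 3.47 ± 0.318, Ovol1 at 1.71 ± 0.149, Ehf at 0.713 ± 0.143 and Tfap2c at 0.0850 ± 0.0283 CPM per kilobase (all SD, n = 3) followed without overlap between neighbours. In sgMef2d cells Pitx1 was the highest of the 9, at 21.4 ± 2.17 CPM per kilobase (SD, n = 2), ahead of Bnc1 at 14.8 ± 0.416. Trp63, at 5.79 ± 0.244, overlapped Tfap2a at 5.58 ± 0.320. Elf3 at 7.70 ± 0.0685 and Grhl2 at 7.60 ± 0.494 overlapped as in the control cells, and Ovol1, Ehf and Tfap2c again came last. The order of the middle genes depends on the length used: with the longest transcript of each gene, Tfap2a came before Elf3 and Trp63 before Pitx1 in sgControl cells.

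Of 14 relatives from the same gene families, 5 were listed and tested. Of these 1 passed the threshold, higher in sgMef2d cells (1 of 5, beside 7.95% of all genes), and the median log2 fold change was 0.19. It was Grhl3 (chr4:135541888-135573630, minus strand), the grainyhead-like factor of the epidermal barrier, with 10, 7 and 6 counts in the sgControl libraries and 63 and 42 counts in the sgMef2d libraries. These were 0.488, 0.496 and 0.440 CPM against 3.71 and 2.83 CPM, and Grhl3 rose by 2.77 ± 0.313 (SE) on the log2 scale with an adjusted p of 3.89e-04 (edgeR's quasi-likelihood test). All 14 alternative settings kept it past their threshold, with adjusted p between 9.57e-11 and 0.0153. Trp53, which encodes p53 itself, was at a mean of 216 ± 5.53 CPM in sgControl and 247 ± 4.67 CPM in sgMef2d libraries, with a log2 fold change of 0.19 and an adjusted p of 0.0635 by the same edgeR test. It passed without sgControl replicate 1, and its adjusted p ran from 3.60e-04 to 0.489 over the alternatives. Ovol2, the partner repressor of Ovol1, had a log2 fold change of 0.51 ± 0.171 (SE, adjusted p = 0.0967 in edgeR), and both its sgMef2d libraries were above the sgControl libraries. Of the 14 alternatives, only the replicate block brought Ovol2 past the threshold. Grhl1 at 0.07 (adjusted p = 0.861) and Bnc2 at 0.10 (adjusted p = 0.911) had overlapping groups and changed sign under some edgeR settings. Trp73, Pitx3, Tfap2b, Tfap2d, Tfap2e, Elf5, Spdef and Ovol3 were among those not listed in the table analysed here.

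**Figure D2:**
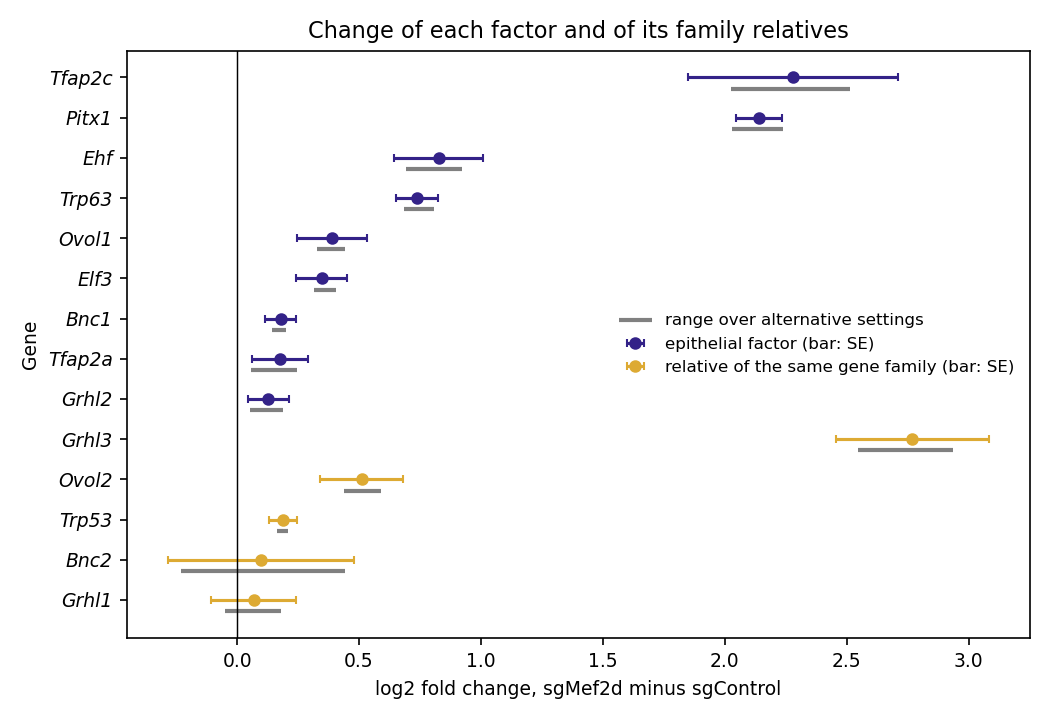
Log2 fold change of sgMef2d minus sgControl for the 9 factor genes and 5 relatives, with bars for the SE and gray lines for the range over the alternative settings. Tfap2c, Pitx1 and the relative Grhl3 lie above 2, the other genes lie below 1, and the gray lines cross 0 for Bnc2 and Grhl1.

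Of 34 genes that p63 is known to act on 28 were tested, and 12 rose and 3 fell (53.6%, beside 7.95% of all genes). Their median log2 fold change was 0.35, and 22 of 28 were above 0. The list was compiled with earlier results of these data known and is not independent evidence of a direction. The basal keratin Krt5 had 3, 0 and 1 counts in the sgControl libraries and 260 and 211 in the sgMef2d libraries. The ratio of the summed CPM was 178 (exact 95% interval 69.2 to 658, counting error only; adjusted p = 3.88e-08 in edgeR). Its partner keratin Krt14 was already abundant in sgControl cells and rose from 439 ± 3.50 to 902 ± 38.6 CPM, by 1.04 ± 0.056 (SE) on the log2 scale. Of 50-base stretches in the transcripts, 8.52% of Krt5 (most often in Krt6a) and 13.9% of Krt14 (most often in Krt16) occur in other genes, so part of their counts is uncertain.

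Dsg3, which encodes a desmosomal cadherin, was at 0.390, 0.780 and 0.147 CPM in the sgControl libraries and at 12.1 and 12.5 CPM in the sgMef2d libraries. Col17a1, which encodes a hemidesmosomal collagen, was at 0.634, 0.780 and 0.293 CPM against 16.5 and 15.0 CPM. Both genes were under 1 CPM in every sgControl library and above 10 CPM in both sgMef2d libraries, with summed ratios of 28.1 (18.2 to 46.0) and 27.3 (18.6 to 41.5) and adjusted p of 2.23e-06 and 3.37e-07 in edgeR. Trim29 rose by 2.38 ± 0.215 (SE), Zfp750, a factor of terminal epidermal differentiation that p63 induces, by 2.36 ± 0.275 (SE), and Igfbp3, which p63 is known to repress, by 1.11 ± 0.083 (SE) on the log2 scale. Dst, whose forms include a hemidesmosomal plakin and are not separated by the counts, fell by 0.56 on the log2 scale (SE 0.1195, adjusted p = 0.0159 in edgeR), although this passed in only 9 of the 14 alternatives. Its sgControl libraries were at 484, 671 and 676 CPM, and the lowest of them was replicate 1.

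Further genes of the list past the threshold included Itgb4, Cdkn1a, Nectin1 and Sfn, which rose by 0.47 to 0.52 on the log2 scale, and Fgfr2 and Fermt1, which each fell by 0.43. Cdkn1a and Sfn, cell-cycle brakes, are genes that p63 is known to repress. Among the most abundant genes that did not pass were Itga3 at 751 ± 64.3 and 751 ± 25.6 CPM (SD, adjusted p = 0.996 in edgeR) and Perp, with a log2 fold change of 0.17 and an adjusted p of 0.103. Perp passed without sgControl replicate 1, and its adjusted p in edgeR and the other fits ran from 7.32e-05 to 0.559. The list lost calls when either sgMef2d library was left out. It had 19 without sgControl replicate 1, beside 3639 of all 12377 genes tested in that fit.

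Markers of other cell states moved with these genes, and their part in the factor levels was not tested. The marker lists share Krt5, Krt14, Itgb4 and Dsg3 with the p63 targets. Of 9 basal mammary markers 6 were listed, summing to 536 to 555 CPM in sgControl and 1024 to 1083 CPM in sgMef2d libraries. Most of both sums was Krt14, at 435 to 442 CPM in sgControl and 874 and 929 CPM in sgMef2d libraries. Of the 6 markers, Krt5, Krt14, Krt17 and Itgb4 rose, while the contractile marker Acta2 fell by 0.81 on the log2 scale. Mylk did not pass, and Myh11, Cnn1 and Oxtr were not listed. Of 11 stratified keratinocyte markers 6 were listed, summing to 12.7 to 14.9 CPM against 182 to 185 CPM. Most of the sgMef2d sum was Krt6a, at 146 and 143 CPM against 3.59 to 4.87 CPM, and Krt1, Ivl, Lor, Flg and Dsc3 were not listed. Of 8 fibroblast markers 6 were listed, summing to 643 to 767 CPM in sgControl and 608 to 649 CPM in sgMef2d libraries. Of these Col3a1 and Dcn rose and Col1a2 fell, and Lum and Thy1 were not listed. Of 7 immune markers only Csf1r and Cd68 were listed, at a sum of 3.004 to 4.11 CPM in all 5 libraries, and Ptprc, Cd3e, Itgam and Adgre1 were not listed.

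Of 18 genes known as targets of GRHL2 17 were tested, and 4 rose and 1 fell (29.4%, beside 7.95% of all genes), with a median log2 fold change of 0.13. Prom2, which encodes a membrane protein of epithelial protrusions, rose by 0.61 ± 0.110 (SE), Rab25, an epithelial vesicle GTPase, by 0.42 ± 0.075 (SE) and Mal2, a transcytosis protein, by 0.36 ± 0.067 (SE) on the log2 scale. Rab25 was at 38.5, 39.4 and 35.1 CPM in the sgControl libraries and at 49.5 and 51.0 CPM in the sgMef2d libraries, without overlap. The tight-junction gene Cldn4 rose by 0.26 ± 0.067 (SE) and Macc1 fell by 0.34 (SE 0.072), but these passed in only 8 and 10 of the 14 alternatives, and Cldn4 did not pass with the replicate block. The E-cadherin gene Cdh1 was at 253 ± 18.3 and 277 ± 9.36 CPM (adjusted p = 0.272 in edgeR) and Epcam at 254 ± 1.996 and 277 ± 1.56 CPM (adjusted p = 0.183). Epcam passed without sgControl replicate 1, and its adjusted p in edgeR and the other fits ran from 6.61e-03 to 0.649. The list lost calls when either sgMef2d library was left out. Without sgControl replicate 1, 10 of these genes passed, beside 3639 of all 12377 genes tested in that fit. Without sgControl replicate 2, 3 passed, beside 603 of all 12468.

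**Figure D3:**
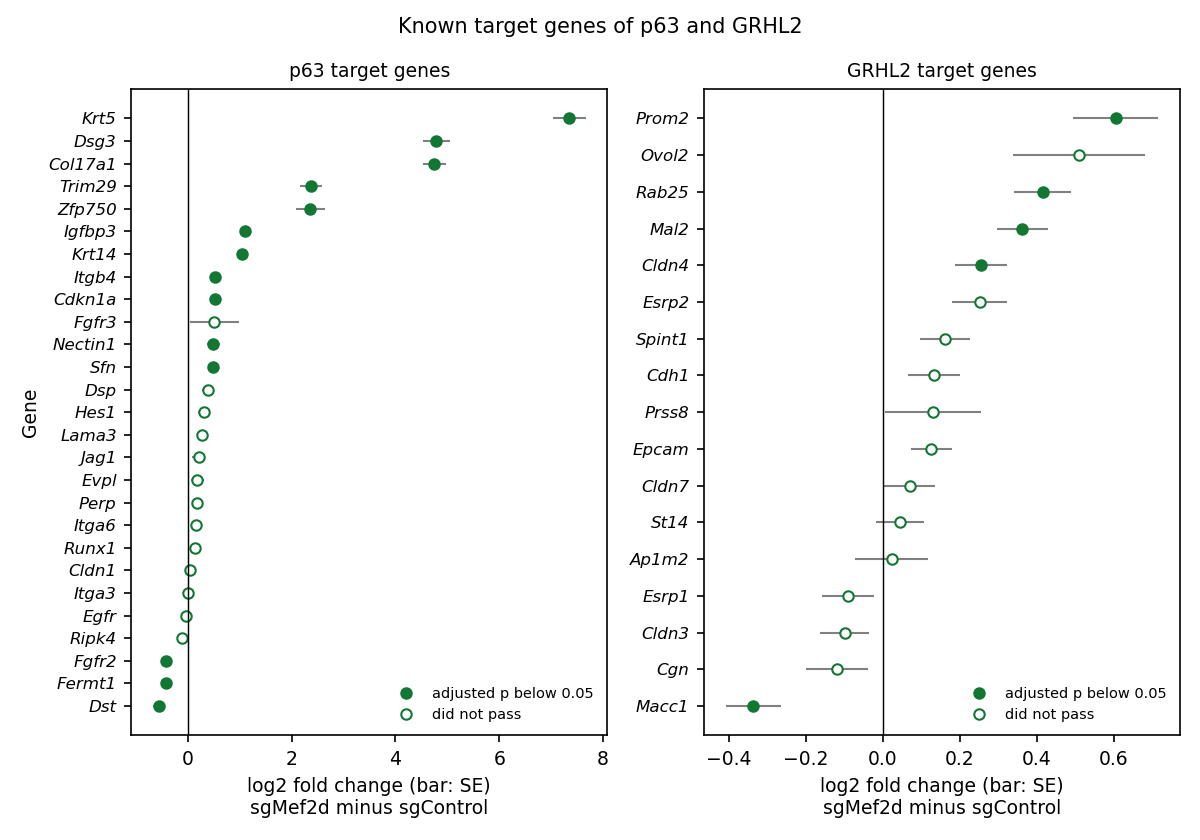
Log2 fold change of sgMef2d minus sgControl, with SE bars, for 27 tested p63 target genes (left) and the 17 tested GRHL2 target genes (right), filled where the adjusted p was below 0.05. The scales differ: p63 targets reach 7.35 at Krt5, while the GRHL2 targets lie between -0.34 and 0.61.

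Promoter windows of 250 bases before the annotated start, from RefSeq (GRCm38.p6), were searched on both strands for 7 motifs. Of the 9 factors, Bnc1, Tfap2a and Elf3 matched an entry. The 4 windows of these genes held 1 match to the AP-2 motif GCCNNNGGC, in Bnc1 at 173 to 165 bases before the start, and 0 matches to the other motifs. Of all 32851 windows 13.7% hold the AP-2 motif, 1.79% the GRHL motif AACCNGTT, 6.25% the PITX motif TAATCC, 2.18% the OVOL motif CCGTTA, 19.7% the ETS motif GGAAGT, 7.13% a p53 family half-site and 2.92% the MEF2 consensus. In the 21 windows of the p63 targets there were 3 with the half-site, 3 with the AP-2 motif, 3 with the ETS motif and 1 each with the GRHL, PITX, OVOL and MEF2 motifs, and 2 of the 12 windows of the GRHL2 targets, those of Rab25 and Cgn, held the GRHL motif. Those 12 windows also held the AP-2 motif in 2, the ETS motif in 4 and the PITX motif in 1.

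Windows of 3 genes that rose are shown with their match in capitals, each 5′ to 3′ on the minus strand: Krt5 with the p53 family half-site at 95 to 86 bases before the start, Krt14 with the PITX motif at 140 to 135 and Rab25 with the GRHL motif at 102 to 95. Each of these windows held 1 match, with no overlap of motifs. The Krt14 window and the last bases of the Rab25 window lie inside the longest extent of these genes in GENCODE M21. A match is a description of the letters and not a site of binding.
Krt5 window, chr15:101712906-101713155: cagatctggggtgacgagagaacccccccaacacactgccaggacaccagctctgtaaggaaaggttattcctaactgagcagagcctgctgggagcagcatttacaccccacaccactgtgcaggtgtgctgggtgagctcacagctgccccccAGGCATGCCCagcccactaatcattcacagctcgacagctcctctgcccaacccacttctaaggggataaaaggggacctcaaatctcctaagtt
Krt14 window, chr11:100206031-100206280: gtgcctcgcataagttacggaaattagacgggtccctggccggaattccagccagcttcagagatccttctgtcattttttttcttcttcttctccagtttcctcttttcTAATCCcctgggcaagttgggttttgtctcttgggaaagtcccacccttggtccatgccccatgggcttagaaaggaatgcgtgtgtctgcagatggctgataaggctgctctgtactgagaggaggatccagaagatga
Rab25 window, chr3:88548280-88548529: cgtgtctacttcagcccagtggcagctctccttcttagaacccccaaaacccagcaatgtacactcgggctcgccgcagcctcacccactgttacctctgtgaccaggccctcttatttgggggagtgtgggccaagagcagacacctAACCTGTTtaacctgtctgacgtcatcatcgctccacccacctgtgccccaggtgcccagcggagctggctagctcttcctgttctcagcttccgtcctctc

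Of 16 tested cofactors and regulators of the 9 factors 2 rose and 1 fell (18.8%, beside 7.95% of all genes), with a median log2 fold change of 0.05. Kctd15, which encodes an inhibitor of AP-2 alpha, was at 3.75, 2.91 and 4.25 CPM in the sgControl libraries and at 9.004 and 8.75 CPM in the sgMef2d libraries. The groups did not overlap, and it rose by 1.28 ± 0.167 (SE) on the log2 scale (adjusted p = 8.75e-04 in edgeR). Mdm2, the ubiquitin ligase of p53, rose by 0.24 on the log2 scale (adjusted p = 0.0480 in edgeR). The ubiquitin ligase gene Nedd4 fell by 0.22 (adjusted p = 0.0407 in edgeR). These passed in only 5 and 8 of the 14 alternatives, and Nedd4 did not pass with the replicate block. Cited2, a coactivator of AP-2 proteins and one of the most abundant that did not pass, was at 272 ± 7.91 and 268 ± 1.82 CPM, with an adjusted p of 0.863 in edgeR. The count fell when either sgMef2d library was left out. It was 1 without sgControl replicate 2 or replicate 3, beside 603 of all 12468 and 812 of all 12466 genes tested. It was 9 without sgControl replicate 1, beside 3639 of all 12377.

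Among 32 other tested transcription factors of epithelia and keratinocytes 7 rose and 4 fell (34.4%, beside 7.95% of all genes), with a median log2 fold change of 0.08. Zfp750 is also in the list of p63 targets. Tbx3, a T-box factor of the mammary bud, rose by 0.73 ± 0.123 (SE), Casz1 by 0.71 ± 0.162 (SE) and the receptor gene Notch1, which acts as a transcription factor once cleaved, by 0.54 ± 0.131 (SE) on the log2 scale. Klf5, a zinc-finger factor of proliferating epithelia, rose by 0.39, and Sox9, a factor of mammary progenitor cells, by 0.36.

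The factors that fell were the forkhead gene Foxq1, by 0.83 (SE 0.1504), the homeobox gene Msx2, by 0.43 (SE 0.070), Vdr, the vitamin D receptor, by 0.40 (SE 0.069), and Rbpj, the DNA-binding partner of cleaved Notch, by 0.31 on the log2 scale. Of the exon bases of Foxq1, 66.1% overlap A530084C06Rik on the opposite strand. Cebpb at 199 ± 28.8 and 194 ± 6.25 CPM and Rarg at 115 ± 6.11 and 125 ± 4.08 CPM were the most abundant factors that did not pass (adjusted p = 0.862 and 0.304 in edgeR). The count of 11 fell when either sgMef2d library was left out. It was 17 without sgControl replicate 1, beside 3639 of all 12377 genes tested in that fit.

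**Figure D4:**
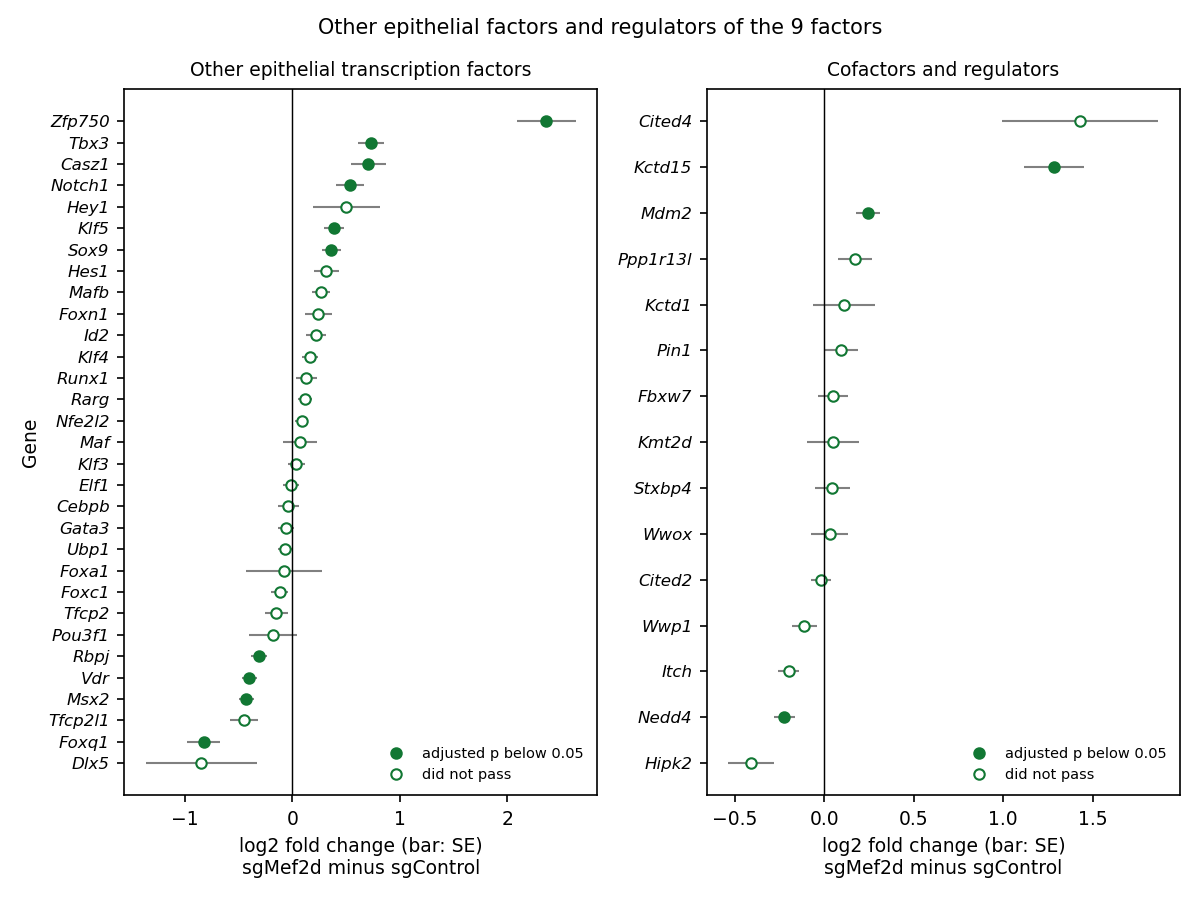
Log2 fold change of sgMef2d minus sgControl, with SE bars, for 31 other epithelial transcription factors (left) and 15 cofactors and regulators of the 9 factors (right), filled where the adjusted p was below 0.05. Zfp750 at 2.36 and Kctd15 at 1.28 are the highest filled points, and the lowest filled point is Foxq1 at -0.83.

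The genes whose pattern over the 5 libraries was most like that of Trp63 were found by the root mean square difference of log2 CPM, each gene centred on its own mean. They were Apobec1 (0.0402), Sirpa (0.0549), Dll1 (0.0551), Kif26a (0.0694) and Sytl1 (0.0734), all on the log2 scale, and 14 genes lay within 0.1. Dll1, for example, was at 34.8, 31.4 and 37.0 CPM in the sgControl libraries and at 55.3 and 54.0 CPM in the sgMef2d libraries. For Pitx1 the nearest were Krt16 (0.103), Gm15262 (0.135), Ccnd2 (0.137), Trim29 (0.177) and Fat2 (0.191), and 0 genes lay within 0.1. Krt16 was at 4.29, 4.11 and 3.88 CPM against 16.7 and 18.5 CPM, with 37.6% of its 50-base stretches shared with other genes. With 5 libraries in 2 groups this likeness mostly describes a like step between the groups, and it has no test. Some of these genes had few counts. Sytl1 had 11 to 29 counts in the 5 libraries and did not pass (adjusted p = 0.129 in edgeR). Gm15262 and Ccnd2 had 6 to 10 counts in the sgControl libraries.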

How the data were processed

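Poly(A) RNA of EpH4 cells was sequenced from strand-marked libraries. The authors used STAR and GRCm38 for alignment, and the values they deposited are raw counts (whole numbers, not normalized). The submitters' processing notes also name CASAVA and Subread, and the versions of CASAVA and Subread and the strand setting of the counting are not given in the sources used here. The study's methods name GENCODE version 22, while M21 was used here: all 12934 gene identifiers matched M21 (12811 with the same version), from which symbols, exon lengths and coordinates were taken. The smallest of the genes' highest counts was 11, and library totals cover the listed genes only.

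The 9 factors and all lists were chosen with earlier results of these data known. Counts were normalized by TMM (factors 0.996 to 1.00) in edgeR 4.0.16 (R 4.3.3), and sgMef2d was compared with sgControl by the quasi-likelihood test on the 12483 genes that passed its expression filter by group, with Benjamini-Hochberg adjustment over all of them and a threshold of 0.05. CPM values are scaled by TMM. A prior count of 2 was used for log2 CPM values, as in the pattern distances, and log2 fold changes are those of the fit. The SE of a log2 fold change was derived from the test statistic of the quasi-likelihood test, and its 95% interval rests on this SE. Intervals of summed counts are exact 95% intervals and cover counting error only. The genes named were the 9 factors, Mef2d, every listed relative, up to 8 genes of each other list past the threshold by size of change with the 2 most abundant that did not pass, and the 5 genes nearest in pattern to Trp63 and to Pitx1. A few genes that this rule or the lists hold are counted but not reported here by name. Marker genes and the remaining called genes named beyond this were chosen after their values were seen. Alternatives were other normalizations, filters and thresholds, legacy quasi-likelihood, DESeq2 1.42.0, limma-voom 3.58.1, a replicate block and fits that omit 1 library. Only the main edgeR fit was tested on simulated counts. No column with values of a sample was set aside.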

Additional observations from a re-analysis of the deposited data

How the results depend on the processing

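The 992 calls over all genes were 422 at an adjusted p below 0.01, 1254 with a replicate block (901 shared) and between 234 and 3639 with a library left out. The highest count was without sgControl replicate 1, and the counts were 603 without sgControl replicate 2, 238 without sgMef2d replicate 1 and 234 without sgMef2d replicate 2. With a library left out, calls ran from 2 to 6 for the 9 factors, 1 to 2 for the relatives, 9 to 19 for the p63 targets, 0 to 10 for the GRHL2 targets, 1 to 9 for the cofactors and regulators and 2 to 17 for the other factors. At an adjusted p below 0.01 there were 3 GRHL2 targets, 1 cofactor or regulator and 6 other factors. The replicate numbers were not taken as pairing the libraries: only 2 numbers are shared, and the deviations of same-numbered libraries correlated at 0.0113 and -0.0009. With the replicate block 5 factors (Elf3 added) and 2 relatives (Ovol2 added) passed. The median level per length in sgControl cells was 4.85 CPM per kilobase, and 5.43 with the longest transcript. Of 126 values of the 9 factors' log2 fold changes, 0 changed sign, and that of Bnc1 was 0.14 without sgMef2d replicate 1. The values at an adjusted p below 0.01 come from the main fit, so their sign could not change. Of 644 values of the other named genes 571 kept direction and side of the threshold, 58 lost the call, 5 gained it and 10 changed sign, at values that passed no threshold: Grhl1 at -0.0034 and Itga3 at 0.039 with the replicate block, Itga3 at 0.0025 with limma-voom, and with a library left out Bnc2 between -0.23 and 0.44, Grhl1 between -0.050 and 0.18, Itga3 between -0.072 and 0.035, Cited2 between -0.036 and 0.0027 and Cebpb between -0.11 and 0.089. The cause was not tested. The design has 3 and 2 libraries, and Tfap2c, Grhl3 and Krt5 are limited by counts of 0 to 10 in the sgControl libraries.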
